A study of Mus musculus with 8 samples.

Results

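Interferon-stimulated genes are the genes that cells switch on when an interferon binds its receptor. The 35 genes described here were chosen by name as known targets of type I or type II interferon, by a rule that uses no measured values, although the group was singled out with earlier results of these data known. Of these, 32 had a probe set annotated to a single gene symbol and were measured, among 22180 genes tested in all. The other 3 were Gbp2 and Oas1a, which share their probe sets with a near-identical neighbour, and Ifi44, which was not analysed here.

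The samples were hearts of male wild-type mice, 8 to 10 weeks old, labelled C57BL6JRj and called C57BL6/J in the growth protocol. Mice received a single intraperitoneal injection at ZT5, with ZT0 as lights-on, and hearts were taken at ZT9. One group was given digoxin at 1 mg/kg, a cardiac glycoside that inhibits the Na/K-ATPase (5 arrays), and the other the solvent alone, a mixture of ethanol, propylene glycol, citric acid and sodium phosphate (3 arrays). The design text counts 4 solvent samples, of which 1 was not analysed here. Expression was measured on Affymetrix Mouse Gene 2.0 ST arrays from RNA of whole hearts, so cardiomyocytes, endothelial cells, fibroblasts and leukocytes contributed to each value, and fewer cells of a type cannot be told apart from less RNA per cell.

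All levels below are deposited log2 values in which every probe set was centred. They give differences between arrays, not absolute amounts, so genes cannot be ranked by abundance and a gene at background cannot be recognised. Precision is limited by the number of arrays. The IFIT, GTPase and oligoadenylate synthetase genes have close paralogues, and how far their probes cross-hybridise was not tested. Nothing in the labels says that each array came from a separate mouse, and p values then measure only the spread between these samples.

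Type I interferons act through the receptor chains IFNAR1 and IFNAR2, and type II interferon, the product of Ifng, through IFNGR1 and IFNGR2. JAK kinases then activate STAT proteins. A complex that holds STAT2 and IRF9 binds the interferon-stimulated response element (ISRE), and the response to type II interferon acts through the gamma-activated site (GAS). The induced proteins block translation of viral RNA, destroy or sense that RNA, attack pathogen vacuoles, present antigen and recruit lymphocytes, and many are also made at a low basal level in uninfected tissue.

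The choice of genes did not use promoter sequence. RefSeq promoter windows on GRCm38.p6, which run from 250 bases before to 50 bases after an annotated start, were found for 28 of the 35 genes. The ISRE letters, which are GAAA and a second GAAA with any 2 bases between them, or TTTC and TTTC spaced alike on the other strand, were in the window of 17 of these 28 genes (60.7%), against 3.99% of 27025 genes with a window. Overlapping matches were allowed. The GAS letters, TTC and GAA with any 3 bases between them, read the same on both strands and were in 8 of the 28 windows (28.6%), against 9.55% of all genes. The 13 stretches below belong to the genes given array by array whose window held the ISRE letters, and are shown so that genes with opposite shifts can be compared. Capitals mark the matched letters, each stretch reads 5′ to 3′ on the strand of its gene, and 20 bases flank the matches where the window allows.
Ifit1 (chr19:34640765-34640833, plus strand): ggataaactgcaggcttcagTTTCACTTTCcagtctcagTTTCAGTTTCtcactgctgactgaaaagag
Ifit3 (chr19:34583353-34583436, plus strand): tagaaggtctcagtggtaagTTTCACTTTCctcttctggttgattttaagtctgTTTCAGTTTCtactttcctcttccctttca
Isg15 (chr4:156200855-156200916, minus strand): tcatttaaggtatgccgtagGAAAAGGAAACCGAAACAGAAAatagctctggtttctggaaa
Stat2 (chr10:128270256-128270305, plus strand): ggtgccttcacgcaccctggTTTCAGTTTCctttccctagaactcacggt
Oas3 (chr5:120777705-120777754, minus strand): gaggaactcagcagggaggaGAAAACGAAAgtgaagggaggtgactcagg
Ifih1 (chr2:62646206-62646243, minus strand): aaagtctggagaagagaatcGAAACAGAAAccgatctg
Ddx58 (chr4:40239794-40239843, minus strand): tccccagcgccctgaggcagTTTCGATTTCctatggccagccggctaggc
Bst2 (chr8:71537567-71537622, minus strand): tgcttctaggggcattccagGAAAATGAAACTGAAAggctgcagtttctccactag
Irgm1 (chr11:48871415-48871470, minus strand): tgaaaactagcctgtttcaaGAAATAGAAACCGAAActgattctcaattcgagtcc
Irgm2 (chr11:58214893-58214942, plus strand): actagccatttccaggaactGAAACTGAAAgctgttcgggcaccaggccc
Gbp3 (chr3:142559979-142560034, plus strand): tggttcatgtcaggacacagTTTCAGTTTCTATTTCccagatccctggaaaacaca
Gbp7 (chr3:142530263-142530312, plus strand): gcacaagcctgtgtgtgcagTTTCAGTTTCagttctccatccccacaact
Cxcl10 (chr5:92349073-92349122, minus strand): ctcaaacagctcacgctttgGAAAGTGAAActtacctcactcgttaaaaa

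In digoxin hearts 1 of the 32 measured genes fell in limma and none rose. It was Parp14, a mono-ADP-ribosyltransferase studied mainly in macrophages and lymphocytes. Over all genes tested, 0.415% were called lower and 0.947% higher at the same threshold, an adjusted p of 0.05. The other 31 genes did not pass, with adjusted p values from 0.0698 to 0.988. At an unadjusted p under 0.05 there were 9 lower genes and 1 higher gene, against 5.99% and 6.32% of all genes. Shifts were small: the median log2 change was -0.16 over the 32 genes and -0.01 over all genes tested. The mean was lower in digoxin hearts for 26 of the 32, against 55.6% of all genes, and since the genes share their arrays these are not 26 separate observations.

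Single arrays weighed on these values, as the plot of all members by array shows. The median of the 32 genes was -0.13, -0.01, -0.09, -0.02 and -0.09 on digoxin arrays 1 to 5, against 0.18, 0.06 and -0.07 on vehicle arrays 1 to 3. Vehicle array 1 held the highest of the 8 values for 18 genes. Vehicle array 3 held the lowest vehicle value for 24 genes, and over all probe sets it had an interquartile range of 0.216, against 0.0792 to 0.115 on the other 7 arrays. Within a group, the SD of a member had a median of 0.12 in digoxin hearts and 0.22 in vehicle hearts, and it was 0.09 in vehicle hearts without array 3. Without vehicle array 1 the median log2 change was -0.06, with 20 of 32 genes lower. Without vehicle array 3 it was -0.21, with 29 of 32 genes lower against 51.8% of all genes. In that fit 6 genes fell, against 0.852% of all genes called lower: Parp14, Oasl2, Iigp1, Ddx58, Gbp3 and Irf9. Arrays were also weighted in limma by how closely their values followed the group means, so the weights come from these same values. With these weights 5 genes fell, against 1.44% of all genes called lower: Parp14, Oasl2, Iigp1, Ddx58 and Gbp7. At an adjusted p of 0.10, 3 genes were lower, against 0.748% of all genes, and without digoxin array 4 and vehicle array 3 together 7 fell, against 1.27%. Leaving out vehicle array 3 lowers the change by construction for the 24 genes in which it was lowest of its group. Digoxin array 4 held the highest digoxin value for 18 genes, and leaving it out acts the same way. The counts of 6 and 7 carry this limit.

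**Figure D1:**
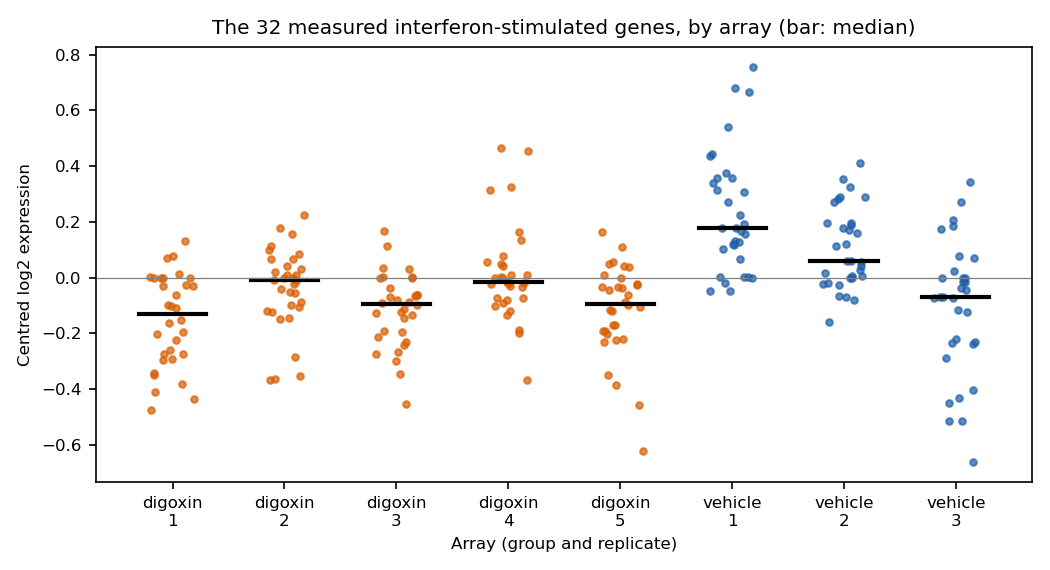
Centred log2 expression of the 32 measured interferon-stimulated genes on each array, with digoxin arrays in orange and vehicle arrays in blue. Each point is 1 gene and each bar is the median over the genes, from -0.13 to -0.01 on digoxin arrays and 0.18, 0.06 and -0.07 on vehicle arrays 1 to 3.

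The transcription factors differed in how far the groups separated. Irf1, induced by both interferon types and the factor most tied to interferon gamma, stood at -0.26, -0.06, -0.20, -0.03 and -0.03 on digoxin arrays 1 to 5, against 0.12, 0.11 and 0.08 on vehicle arrays 1 to 3. Every digoxin value lay below every vehicle value, and the vehicle arrays were close together. The log2 change was -0.22 (95% interval -0.36 to -0.08, adjusted p = 0.180). Stat2, the STAT protein particular to type I and III signalling, stood at -0.28, -0.11, -0.09, 0.06 and 0.04 in digoxin hearts, against 0.27, 0.16 and -0.07 in vehicle hearts. Its groups overlapped through vehicle array 3, and the change was -0.20 (95% interval -0.41 to 0.02). It was -0.12 without vehicle array 1 and -0.29 without vehicle array 3.

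Irf9, a DNA-binding partner of STAT2, was even across digoxin hearts, at -0.20, -0.12, -0.10, -0.09 and -0.17, against 0.34, 0.17 and -0.66 in vehicle hearts. Vehicle arrays 1 and 2 were above all digoxin arrays and vehicle array 3 was far below them. The change was -0.09 (95% interval -0.52 to 0.35, adjusted p = 0.892) with all arrays, and -0.39 (adjusted p = 0.0178) without vehicle array 3. It turned to 0.11 without vehicle array 1 and to 0.02 without vehicle array 2. Irf7, which amplifies type I interferon production, had a change of 0.04 (95% interval -0.18 to 0.27), and its sign turned without vehicle array 3 (-0.04), without digoxin array 4 (-0.01), with array weights (-0.04), with quantile normalization (-0.01) and with the replicate block (-0.03).

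**Figure D2:**
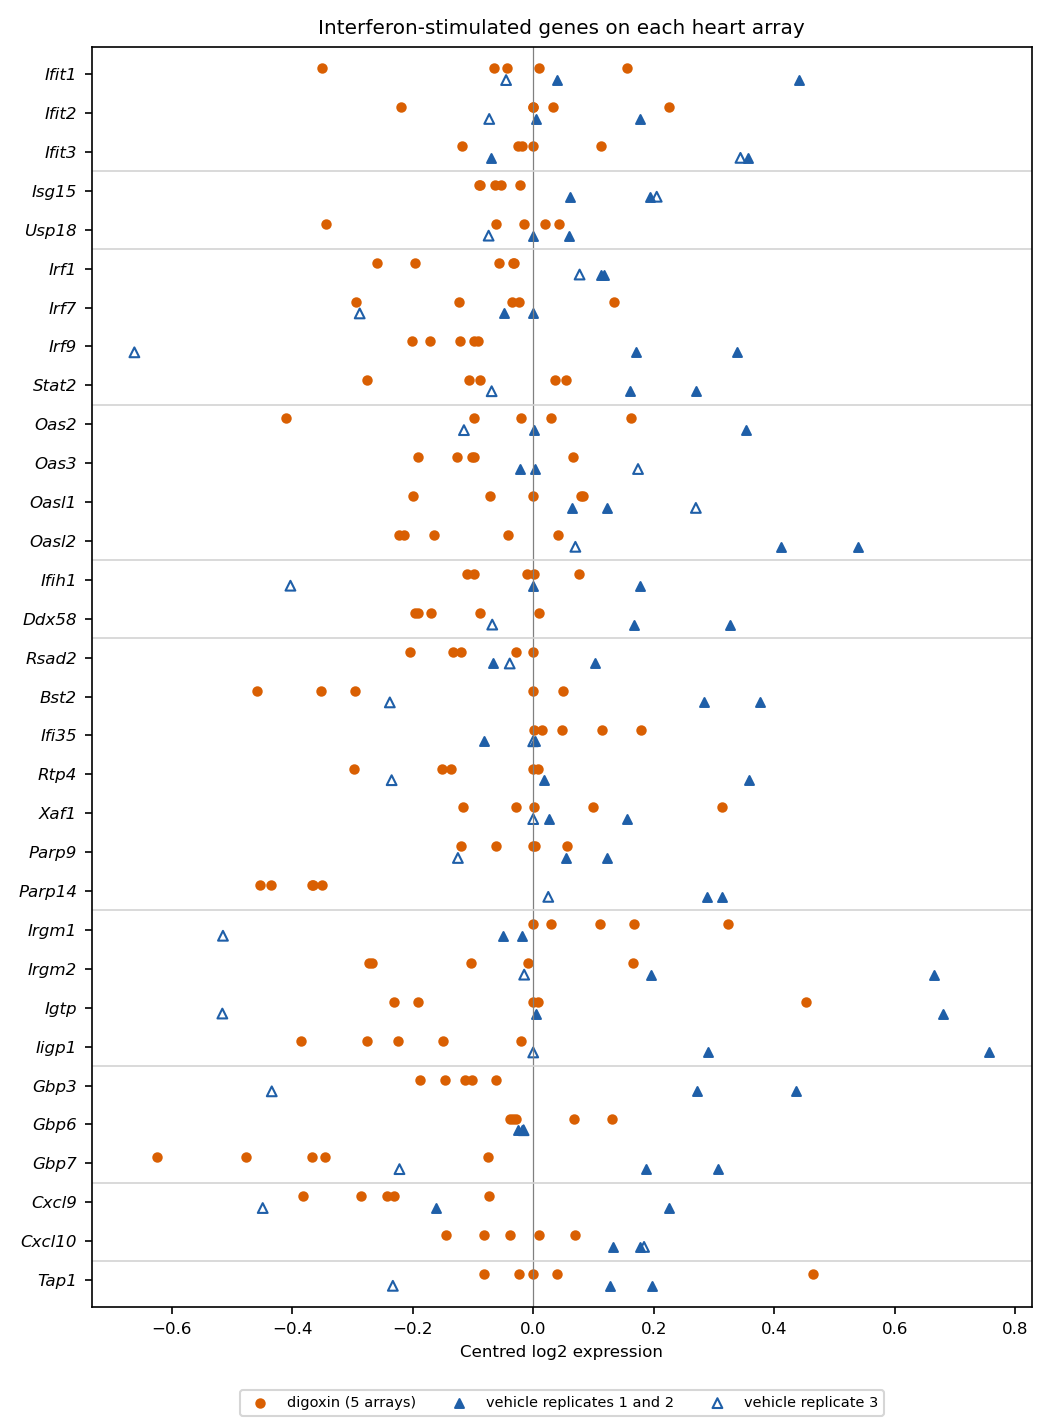
Centred log2 expression of each measured member (rows, grouped by role) on each array, with 5 digoxin arrays as orange dots and 3 vehicle arrays as blue triangles, replicate 3 open. Parp14 shows the widest gap between the groups, from -0.35 (highest digoxin) to 0.03 (lowest vehicle). For Irf9 and Gbp3 the open triangle lies apart from both filled ones, and for Igtp all 3 triangles are spread out.

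The ubiquitin-like modifier gene Isg15 was tightly grouped in digoxin hearts, at -0.06, -0.05, -0.09, -0.02 and -0.09, against 0.19, 0.06 and 0.21 in vehicle hearts. No digoxin array reached a vehicle array. The change was -0.22 (SE 0.05, 95% interval -0.32 to -0.11), to 0.860 times the vehicle level, and it missed the threshold (adjusted p = 0.0698). Its promoter carries 3 overlapping ISRE matches, the first beginning 78 bases upstream of the start. Usp18, the protease that removes ISG15 and restrains the type I receptor, stood at -0.34, 0.02, -0.06, -0.02 and 0.04 in digoxin hearts, against 0.00, 0.06 and -0.07 in vehicle hearts. Only digoxin array 1 was low, and the change was -0.07 (95% interval -0.27 to 0.13), or 0.00 without that array.

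None of the 3 IFIT members, whose products bind foreign RNA and block its translation, passed the test, and all 3 had lower means in digoxin hearts. Among IFIT genes outside the members, Ifit1bl1 had a change of 0.05 and Ifit3b of -0.11. Ifit1 stood at -0.35, 0.16, -0.07, 0.01 and -0.04 in digoxin hearts, against 0.44, 0.04 and -0.04 in vehicle hearts. Vehicle array 1 was high, digoxin array 1 was low and the others overlapped. The change was -0.20 (95% interval -0.51 to 0.10), and -0.06 without vehicle array 1. Ifit3 stood at -0.03, 0.11, 0.00, -0.02 and -0.12 in digoxin hearts, against 0.36, -0.07 and 0.34 in vehicle hearts. Here vehicle array 2, not array 3, lay among the digoxin arrays, and the change was -0.22 (95% interval -0.45 to 0.01), or -0.36 without that array. Ifit2 stood at 0.00, 0.23, 0.03, 0.00 and -0.22 in digoxin hearts, against 0.18, 0.01 and -0.07 in vehicle hearts, with full overlap and a change of -0.03 (95% interval -0.25 to 0.19) that turned to 0.04 without vehicle array 1.

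Most oligoadenylate synthetases make the messenger that activates RNase L, which cuts viral RNA. All 4 measured members had lower means in digoxin hearts, and none passed the test. Outside the members, Oas1b, Oas1c and Oas1g had higher means (changes of 0.054, 0.045 and 0.03) and did not pass either. Oasl2, a mouse OAS-like protein, had the largest shift of the 4, with values of -0.16, -0.04, -0.21, 0.04 and -0.22 in digoxin hearts, against 0.54, 0.41 and 0.07 in vehicle hearts. The groups did not overlap, though digoxin array 4 and vehicle array 3 were close. Its change was -0.46 (SE 0.11, adjusted p = 0.0988), or 0.727 times the vehicle level, and without vehicle array 3 it was -0.60 (adjusted p = 0.0132).

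Oasl1, known in mouse to restrain translation of Irf7 mRNA, stood at 0.08, 0.08, -0.07, -0.20 and 0.00 in digoxin hearts, against 0.06, 0.12 and 0.27 in vehicle hearts. Vehicle array 3 was its highest array, unlike in Oasl2, and the change was -0.17 (95% interval -0.35 to 0.00), or -0.12 without that array. Oas3 stood at -0.10, 0.07, -0.13, -0.10 and -0.19 in digoxin hearts, against 0.00, -0.02 and 0.17 in vehicle hearts. Its groups overlapped through digoxin array 2 (change -0.14, 95% interval -0.30 to 0.02), and the change was -0.08 without vehicle array 3. Oas2 had a change of -0.15 (95% interval -0.47 to 0.17), which was -0.01 without vehicle array 2.

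Among the cytosolic RNA sensors, Ddx58, which encodes RIG-I, stood at -0.20, -0.09, -0.19, 0.01 and -0.17 in digoxin hearts, against 0.17, 0.33 and -0.07 in vehicle hearts. Vehicle array 3 lay inside the digoxin range. The change was -0.27 (95% interval -0.47 to -0.07, adjusted p = 0.250), -0.37 without that array (adjusted p = 0.0488) and -0.18 without vehicle array 2 (adjusted p = 0.416). Ifih1, which encodes MDA5, stood at -0.11, -0.01, 0.00, 0.08 and -0.10 in digoxin hearts, against 0.18, 0.00 and -0.40 in vehicle hearts. Its change of 0.05 (95% interval -0.22 to 0.31) turned to -0.12 without vehicle array 3 and to -0.03 with quantile normalization.

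Parp14 separated the groups most clearly. It stood at -0.44, -0.37, -0.45, -0.37 and -0.35 in digoxin hearts, against 0.31, 0.29 and 0.03 in vehicle hearts. The digoxin arrays spanned 0.10 and the nearest vehicle array lay well above them. Digoxin hearts averaged -0.39 ± 0.05 (SD, n = 5), against 0.21 ± 0.16 (SD, n = 3) for vehicle. The log2 change was -0.60 (SE 0.07, 95% interval -0.76 to -0.45, adjusted p = 0.0042 in limma), or 0.658 times the vehicle level. With 1 array left out the change ran from -0.70 to -0.55 and passed in all 8 fits, with a highest adjusted p of 0.0255 (without vehicle replicate 2).

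Its neighbour on chromosome 16, Parp9, whose product works with the ubiquitin ligase DTX3L, had a change of -0.04 (95% interval -0.19 to 0.11) that turned to 0.01 without vehicle array 1. Parp14 lies at chr16:35831892-35871518 and Parp9 at chr16:35938470-35972621. The difference between the 2 genes was not tested. A probe set shared by Dtx3l and Parp9 was left out of the comparison. It was lower on all digoxin arrays than on any vehicle array (difference between means -0.19, not tested).

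The other antiviral effectors did not pass. Bst2, or tetherin, which holds budding virus at the cell surface, stood at -0.30, -0.35, 0.00, 0.05 and -0.46 in digoxin hearts, against 0.38, 0.28 and -0.24 in vehicle hearts. Both groups were widely spread, and the change was -0.35 (95% interval -0.73 to 0.02). It was -0.23 without vehicle array 1 and -0.54 without vehicle array 3. Ifi35 stood at 0.01, 0.18, 0.11, 0.00 and 0.05 in digoxin hearts, against 0.00, -0.08 and 0.00 in vehicle hearts. It was 1 of 6 members with a higher mean in digoxin hearts (0.10, 95% interval -0.02 to 0.22), and its probe sets gave 0.09 and 0.11. Rsad2, which encodes viperin, stood at a change of -0.10, Rtp4 at -0.16 and the pro-apoptotic gene Xaf1 at -0.01, with intervals that hold 0. Rtp4 was at -0.01 without vehicle array 1.

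The immunity-related GTPases, which act on vacuoles of intracellular pathogens and are mainly targets of interferon gamma, moved in both directions without passing the test. Iigp1, an effector that coats such vacuoles, stood at -0.22, -0.15, -0.28, -0.02 and -0.38 in digoxin hearts, against 0.76, 0.29 and 0.00 in vehicle hearts. The groups did not overlap, but digoxin array 4 and vehicle array 3 differed by little. The change was -0.56 (SE 0.15, 95% interval -0.91 to -0.21, adjusted p = 0.157). It was -0.36 without vehicle array 1 and -0.74 without vehicle array 3, where it passed (adjusted p = 0.0395).

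Irgm1, a regulator of these effectors, had the largest positive change of the 32, at 0.00, 0.03, 0.17, 0.32 and 0.11 in digoxin hearts, against -0.05, -0.02 and -0.51 in vehicle hearts. All digoxin arrays lay above all vehicle arrays, by a small gap except for vehicle array 3. Its change of 0.32 (95% interval 0.05 to 0.60, adjusted p = 0.325) was 0.16 without that array. Irgm2, a second regulator, stood at -0.27, -0.01, -0.27, 0.16 and -0.10 in digoxin hearts, against 0.67, 0.20 and -0.02 in vehicle hearts. The groups overlapped, and the change of -0.38 (95% interval -0.73 to -0.03) was -0.19 without vehicle array 1. Both promoters hold ISRE letters within 64 bases upstream of the start. Igtp, the third regulator, ranged from -0.23 to 0.45 in digoxin hearts and from -0.52 to 0.68 in vehicle hearts, so its change of -0.05 turned to 0.26 without vehicle array 1.

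Guanylate-binding proteins are large GTPases that break open pathogen vacuoles and build inflammasome platforms. Gbp7 stood at -0.48, -0.37, -0.35, -0.07 and -0.62 in digoxin hearts, against 0.31, 0.19 and -0.22 in vehicle hearts. Digoxin array 4 was high and vehicle array 3 low, so the groups crossed. The change was -0.47 (95% interval -0.79 to -0.14, adjusted p = 0.210). With 1 array left out it ran from -0.62 (without vehicle array 3) to -0.36 (without vehicle array 1), and no such fit passed (adjusted p 0.0616 to 0.372). It passed on leaving out digoxin array 4 and vehicle array 3 together (-0.70, adjusted p = 0.0114). For Gbp7 these arrays hold the highest digoxin and lowest vehicle value, so leaving them out widens the difference by construction.

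Gbp3 stood at -0.10, -0.15, -0.11, -0.19 and -0.06 in digoxin hearts, against 0.44, 0.27 and -0.43 in vehicle hearts. Like Irf9 it was even in digoxin hearts and split in vehicle hearts. Its change was -0.21 (95% interval -0.59 to 0.17, adjusted p = 0.647) with all arrays, -0.48 without vehicle array 3 (adjusted p = 0.0073) and -0.04 without vehicle array 1. Gbp6 stood at 0.13, 0.07, -0.04, -0.03 and -0.03 in digoxin hearts, against -0.02, -0.02 and -0.02 in vehicle hearts, a change of 0.04 (95% interval -0.08 to 0.16).

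CXCL9 and CXCL10 draw activated T cells through the receptor CXCR3. Cxcl10 stood at 0.07, 0.01, -0.15, -0.08 and -0.04 in digoxin hearts, against 0.13, 0.18 and 0.18 in vehicle hearts. The groups did not overlap, and the change was -0.20 (95% interval -0.32 to -0.08, adjusted p = 0.148). Cxcl9, the chemokine more dependent on interferon gamma, stood at -0.38, -0.29, -0.24, -0.07 and -0.23 in digoxin hearts, against 0.23, -0.16 and -0.45 in vehicle hearts. Its vehicle arrays spanned the digoxin range, and the change of -0.11 (95% interval -0.42 to 0.19) was 0.06 without vehicle array 1.

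Tap1, a subunit of the transporter that brings peptides to class I molecules, stood at 0.00, 0.04, -0.08, 0.46 and -0.02 in digoxin hearts, against 0.13, 0.20 and -0.23 in vehicle hearts. Digoxin array 4 alone was high in its group. The change was 0.05 (95% interval -0.27 to 0.37), and its sign turned without digoxin array 4 (-0.05), without vehicle array 3 (-0.08), with array weights (-0.11), with quantile normalization (-0.03) and with the replicate block (-0.04).

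**Figure D3:**
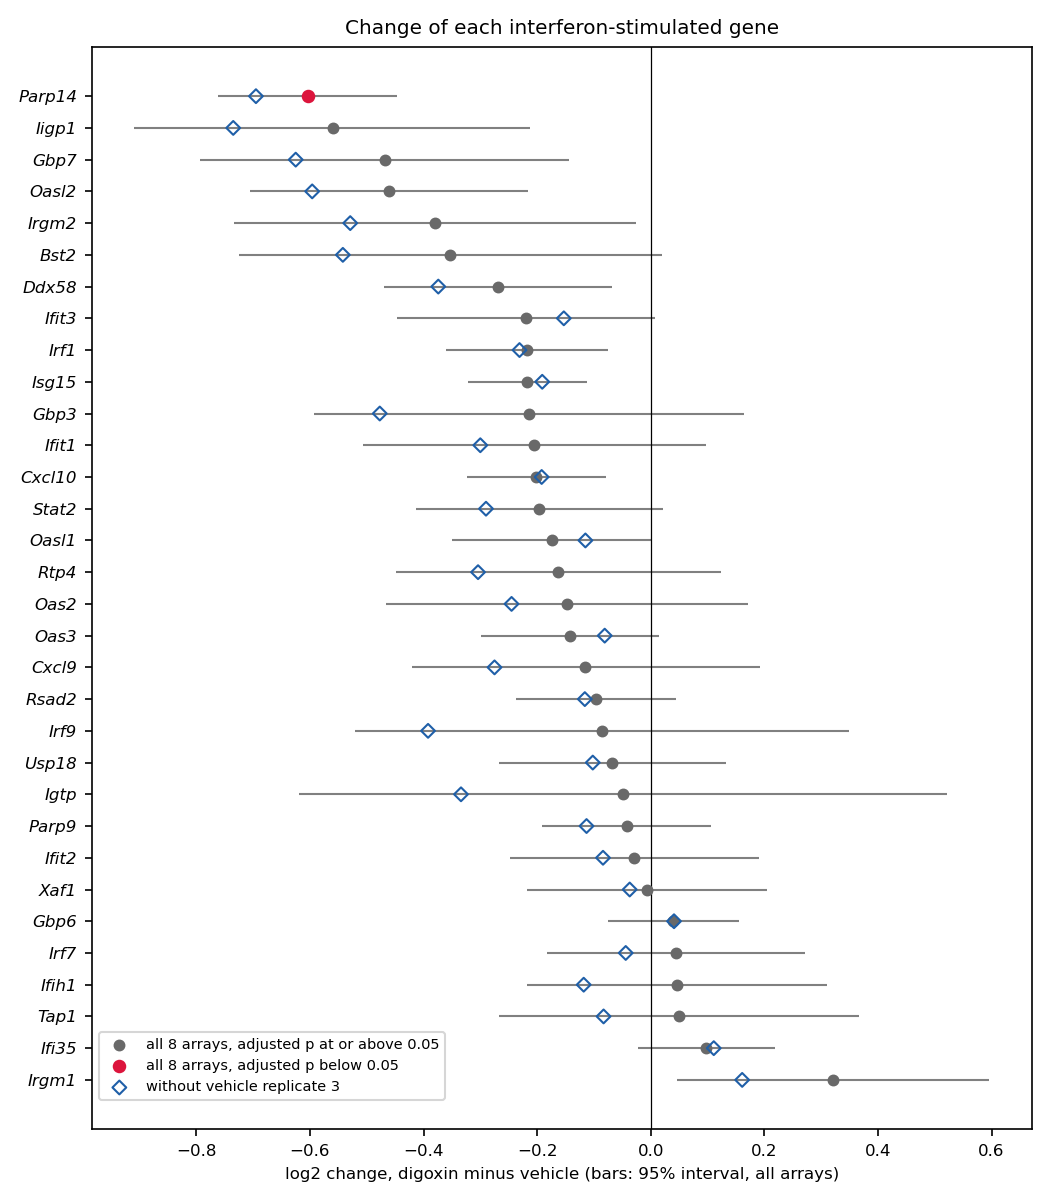
log2 change, digoxin minus vehicle, of the 32 measured members with 95% intervals from limma over all 8 arrays (dots, red where the adjusted p is below 0.05) and the change without vehicle replicate 3 (open diamonds). Parp14 at -0.60 is the single red dot, and the diamonds lie further left than the dots for most members, with 29 of 32 below 0.

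In 7 members the groups did not overlap. Isg15, Irf1, Oasl2, Parp14, Iigp1 and Cxcl10 were lower in every digoxin heart, 6 of 32 against 3.76% of all genes, and Irgm1 was higher, 1 of 32 against 4.4%. Vehicle arrays 1 and 2 both lay above all 5 digoxin arrays in 14 of 32 members, against 9.16% of all genes, a comparison made after the values were seen. It leaves out vehicle array 3, the lowest vehicle array for 24 of the 32, so the choice of arrays favours a high count. Of the 15 measured members with ISRE letters in their window, 13 had lower means and the median change was -0.20. Of the 10 with a window and no such letters, 7 had lower means and the median change was -0.06. The groups did not overlap in 3 of the 15 and in 2 of the 10. For the GAS letters, 6 of 7 measured members with them and 14 of 18 without them had lower means (medians -0.22 and -0.16), and the groups did not overlap in 1 and in 4. The 7 members without a window, which include Parp14 and Iigp1 with the largest shifts, are in neither split. The windows do not show which sites were occupied, and these differences were not tested.

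Beyond these genes, 92 of 105 other genes of the interferon pathway were measured, from ligands and receptors to further targets. Of these, 2 rose and none fell, against 0.947% and 0.415% of all genes. At an unadjusted p under 0.05 the counts were 8 higher and 15 lower, against 6.32% and 5.99%. Ifngr1, the ligand-binding chain of the interferon gamma receptor, stood at 0.37, 0.39, 0.13, 0.54 and 0.37 in digoxin hearts, against -0.12, -0.09 and -0.10 in vehicle hearts. Every digoxin array was above every vehicle array. The change was 0.47 (SE 0.08, adjusted p = 0.0311), or 1.38 times the vehicle level. The call was lost in 6 of the 8 fits that left out 1 array (highest adjusted p = 0.0973, without vehicle replicate 2), all but those without digoxin replicate 3 or 4, while the change stayed between 0.42 and 0.53. The other 5 receptor genes did not pass. Ifnar2 stood at -0.13 (adjusted p = 0.260).

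Ptpn11, which encodes the phosphatase SHP2, a regulator of JAK-STAT and growth factor signals, stood at 0.23, 0.30, 0.33, 0.21 and 0.24 in digoxin hearts, against -0.11, -0.03 and -0.18 in vehicle hearts. The groups were well apart. It rose by 0.37 (SE 0.05, adjusted p = 0.0099) and passed in all 8 fits with 1 array left out. With the trend and robust variance options of limma neither Ptpn11 (adjusted p = 0.0588) nor Ifngr1 (adjusted p = 0.0838) passed. Ptpn11 was 1 of 8 measured negative regulators, and Foxo3 (0.38, adjusted p = 0.0933) was next. The Socs1 and Socs3 feedback inhibitors stood at -0.11 and -0.08.

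None of the 9 interferon ligand genes passed. Ifna4 (-0.27, adjusted p = 0.0835) and Ifna1 (-0.24) had the smallest p, and since alpha interferon genes are near-identical copies their probe sets may not be separable. Ifnb1 stood at -0.06 and Ifng at -0.01. None of 7 measured kinases and factors passed, with Jak2 at 0.15 and Irf8 at -0.09. Among 13 genes of nucleic acid sensing, Tlr7, an endosomal RNA receptor, stood at 0.56 (adjusted p = 0.0527), and its adaptor Myd88 at -0.33 (adjusted p = 0.0585). Both passed without vehicle array 3.

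Of 34 other interferon-stimulated genes none passed, and 21 (61.8%) had lower means, against 55.6% of all genes (median change -0.07). Gbp5 stood at -0.52 (adjusted p = 0.0867) and the membrane antiviral gene Ifitm3 at -0.28 (adjusted p = 0.185). The 15 measured genes of antigen presentation had a median change of 0.01, and none passed. Of these, 10 had higher means and 5 (33.3%) lower means. The 2 of smallest p, Tapbp at -0.16 and Ciita at -0.13, were among the lower ones.

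**Figure D4:**
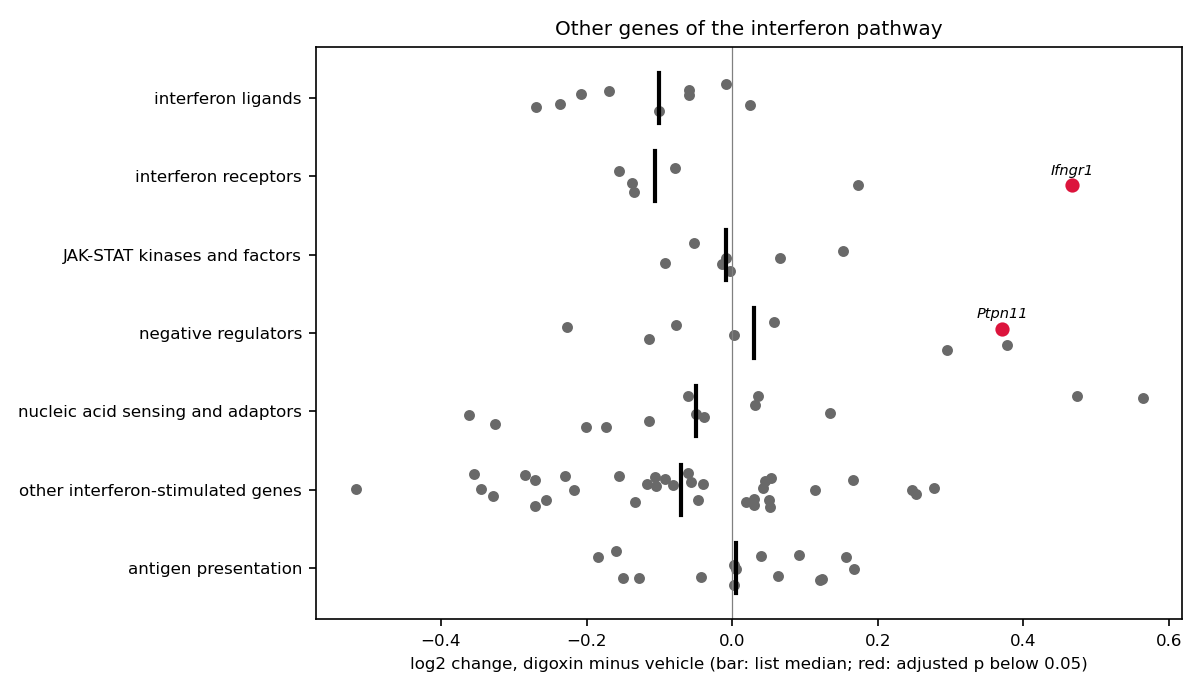
log2 change, digoxin minus vehicle, of 92 other measured genes of the interferon pathway, grouped by role (rows), with a bar at each list's median and red points for genes with an adjusted p below 0.05. The red points are Ifngr1 at 0.47 and Ptpn11 at 0.37.

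Some markers of other cell types moved with single arrays, and in others the groups did not overlap. Of 75 measured markers, 7 were lower in every digoxin heart and 3 higher, against 3.76% and 4.4% of all genes. On digoxin array 4 the T cell genes Cd3g, Cd3e, Cd4, Cd8b1 and Cd8a stood at 3.16, 2.85, 2.43, 2.31 and 2.14, against -0.25 to 0.26 on the other 7 arrays. The mean of 11 T and NK markers was 1.24 on that array and -0.06 to 0.10 on the other digoxin arrays, against -0.04 to 0.09 in vehicle hearts, and none of the 11 passed the test. The NK gene Ncr1 was at -0.08 there and Nkg7 at 0.00. The same array held the highest digoxin value for 18 of the 32 members, among them Tap1 and Igtp, and its mean over antigen presentation genes was 0.28. Without digoxin array 4 the median change of the members was -0.16, with 28 of 32 lower. Whether tissue other than heart was in that sample was not tested.

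The mean of 14 macrophage and monocyte markers was 0.00, -0.07, -0.12, 0.10 and -0.06 on digoxin arrays 1 to 5, against 0.15, 0.12 and -0.17 on vehicle arrays 1 to 3. The mean of the 32 interferon-stimulated genes was -0.15, -0.04, -0.11, 0.02 and -0.12 on the same digoxin arrays, against 0.23, 0.10 and -0.11 on the vehicle arrays. Both were highest on vehicle arrays 1 and 2, followed by digoxin array 4, and both were low on vehicle array 3. Digoxin array 1 was the lowest array for the interferon-stimulated genes and not for the macrophage markers. Of the 14, Cx3cr1 fell (-0.26, adjusted p = 0.0477), and none rose. In 3 of the 14 the groups did not overlap, all lower, against 3.76% of all genes. These were Cx3cr1, Fcgr1 (-0.33, adjusted p = 0.0933) and Ccr2 (-0.235, adjusted p = 0.1195). The mean of 7 atrial cardiomyocyte markers ranged from -0.44 to 1.74 in digoxin hearts, against 2.24, 1.61 and 0.34 in vehicle hearts. Of the 7, Nr2f2 fell (-0.48, adjusted p = 0.0467). Endothelial markers gave -0.08 to 0.05 in digoxin hearts, against 0.07, 0.10 and -0.14 in vehicle hearts. Of 10 such genes Esam rose (0.46, adjusted p = 0.0486) and Eng fell (-0.47, adjusted p = 0.0477). Over all 75 measured markers 1 rose and 3 fell in limma, against 0.947% and 0.415% of all genes. Each of these calls lay close to the threshold. None of 5 B cell, 5 plasmacytoid dendritic cell, 7 neutrophil, 8 fibroblast or 8 general cardiomyocyte markers passed, and red blood cell genes had no probe set of their own. With centred values no marker can be said to be at background, and the heart label could not be checked by level. The part of leukocyte or atrial content in the lower interferon-stimulated genes was not tested.

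**Figure D5:**
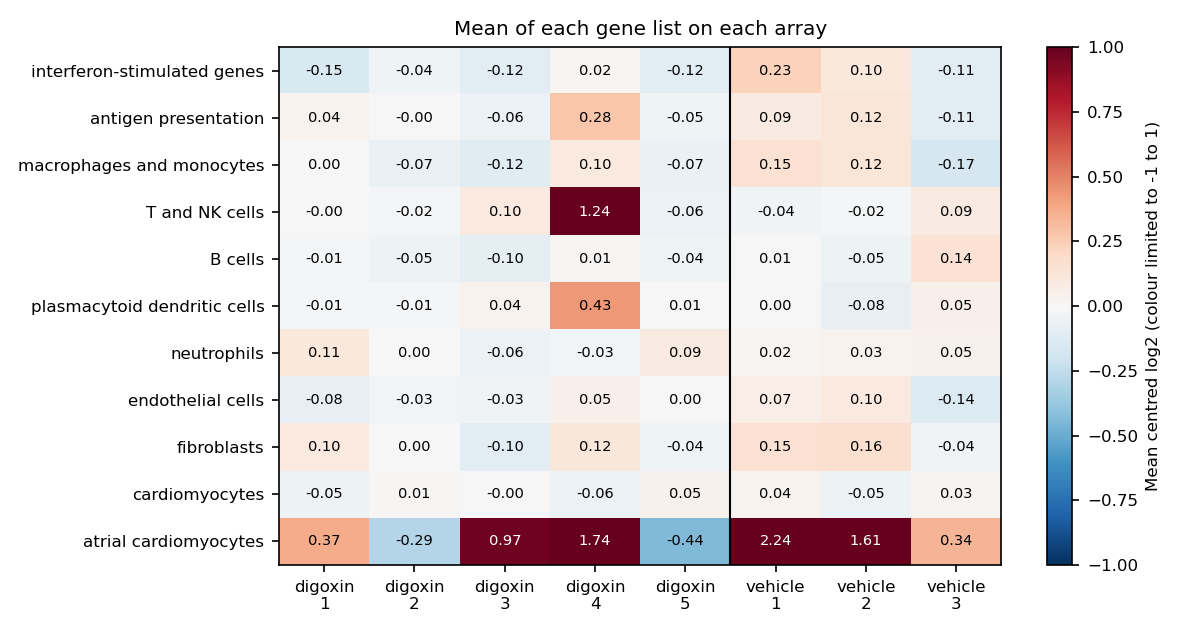
Mean centred log2 value of the measured interferon-stimulated genes, of antigen presentation genes and of 9 cell type marker lists (rows) on each array (columns), written in each cell, with digoxin arrays left of the line. T and NK markers reach 1.24 on digoxin array 4, and atrial markers run from -0.44 to 2.24 across the hearts.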

How the data were processed

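Affymetrix arrays of 8 hearts were analysed. Per the design text, the authors obtained the deposited log2 values by RMA normalisation within Galaxy. The submitters' processing notes list limma with no version. Values are centred for each probe set on a constant that is not stated and that cancels between arrays. The log base is taken as that of the method. Of 34351 probe sets, 23521 had 1 gene symbol in the platform annotation and were averaged per gene, giving 22180 genes. The test of digoxin against vehicle used lmFit and eBayes of limma 3.58.1 under R 4.3.3 (no covariate, two-sided), with p values adjusted by Benjamini-Hochberg across the 22180 genes and a threshold of 0.05. Alternatives were 2 scalings, 2 treatments of probe sets, another variance model, array weights, a looser threshold, a replicate block and arrays left out. The rule for the members uses no measured values, but members, lists and alternatives were chosen with earlier results of these data known. Values on every array are given for the 3 members of smallest p in each role list of at least 4 measured genes, and for all of smaller lists. Pathway genes named are those past the test and the 2 of smallest p per list. Ifnb1, Ifng, Socs1, Socs3, Ifit1bl1, Ifit3b, Oas1b, Oas1c and Oas1g were added afterwards. Digoxin arrays carry the numbers 13 to 17 and vehicle arrays 10 to 12, so treatment and the order of arrays cannot be told apart. No 2 arrays were duplicates. On simulated data over 22180 genes with 200 changed, the fit recovered 74.5% at a log2 change of 0.5 and 97% at 1. False calls made up 8.59% and 3.48% of the genes called. Simulated noise had the same spread on every array, unlike the wider vehicle array 3. A filter on dim genes was not possible on centred values.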

Additional observations from a re-analysis of the deposited data

Results flagged for a closer look

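In 4 of 43 sets of 5 digoxin arrays examined, 1 array stood apart from the others by more than 0.71 of the whole range, and chance sets about 1 in 20 apart. Usp18 was at -0.34 on digoxin replicate 1, against -0.06 to 0.04 on the other digoxin arrays. Tap1 was at 0.46 on digoxin replicate 4, against -0.08 to 0.04. The mean of the T and NK cell markers was 1.24 on digoxin replicate 4, against -0.06 to 0.10, and that of the plasmacytoid dendritic cell markers was 0.43, against -0.01 to 0.04. Of the 5 genes on the dendritic cell list, Ly6d (1.31) and Ccr9 (0.66) were high on that array, and Siglech, Klk1 and Cox6a2 were at 0.13, 0.14 and -0.07. The list mean there rests on Ly6d and Ccr9, and whether it reflects dendritic cells was not tested.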

How the results depend on the processing

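The count of members that fell was 1 with all arrays and the settings of the report. It was 5 with array weights (Parp14, Oasl2, Ddx58, Iigp1 and Gbp7), 3 at an adjusted p of 0.10 (Parp14, Isg15 and Oasl2), 7 on leaving out digoxin replicate 4 plus vehicle replicate 3, when genes called lower over the whole array were 1.44%, 0.748% and 1.27%, against 0.415% with the report's settings, and 1 to 6 with 1 array left out. Leaving out vehicle replicate 3, the lowest vehicle array for 24 of 32 members, lowers their change by construction. No member rose in any of the 18 alternatives. The median change of the members lay between -0.212 and -0.061 with 1 array left out, and -0.061 was without vehicle replicate 1. With the replicate block, which keeps only replicates 1 to 3 of each group, 0 members fell (Parp14 at -0.63, adjusted p = 0.156), and the same 6 arrays without the block, an alternative added after seeing the data, also gave 0 (adjusted p = 0.0566). Deviations of same-numbered arrays from their group means correlated at -0.197, -0.018 and 0.024. These values showed no pairing by number, but 3 correlations cannot settle whether arrays were paired. Pathway genes that rose numbered 2, against 0 with trend and robust variance, 4 at an adjusted p of 0.10, 0 with the replicate block, 0 on those 6 arrays without it, and 1 to 2 with 1 array left out. Pathway genes that fell numbered 0, against 2 with quantile normalization, 7 with array weights, 3 at an adjusted p of 0.10, 4 on leaving out digoxin replicate 4 plus vehicle replicate 3, and 0 to 3 with 1 array left out. Parp14 passed in 16 of 18 alternatives. Not all of these could have failed, since the looser threshold reuses the main fit. Parp14 also has 1 probe set, so both treatments of probe sets leave its values unchanged. A filter on dim genes was not run, since centred values carry no level. With 3 vehicle arrays, 74.5% of simulated log2 changes of 0.5 were recovered, under noise of equal spread on all arrays. Smaller changes, as in all but 2 members, were not simulated. The sign was kept in all 8 fits with 1 array left out for 22 of 32 members, and under both scalings for 29 of 32.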

Other observations

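Probe sets shared with a neighbouring gene were left out of the comparison, and 3 of them bear a symbol of the chosen genes. The probe set of Gbp2 and Gbp2b stood at -0.20, -0.34, -0.45, 0.00 and -0.34 on digoxin arrays 1 to 5, against 0.31, 0.43 and 0.09 on vehicle arrays 1 to 3. All digoxin values lay at or below 0 and all vehicle values above it, with a difference between means of -0.54. That of Dtx3l and Parp9 stood at -0.06, -0.07, -0.08, -0.03 and -0.06 in digoxin hearts, against 0.14, 0.23 and 0.03 in vehicle hearts, also without overlap (difference -0.19). The probe set of Oas1a and Oas1g overlapped between the groups, with a difference of -0.08. These differences were not tested.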
